A study of Mus musculus with 24 samples.

Results

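The genes described here are the nuclear-encoded genes of respiratory complexes I to IV in the mouse limb bud. They were chosen by symbol alone: every symbol that begins with Ndufa, Ndufb, Ndufc, Ndufs, Ndufv, Uqcr or with Cox and a digit from 4 to 8, together with Sdha, Sdhb, Sdhc and Sdhd. This gave 75 genes of the 38019 symbols measured, and no measured value entered the choice. They are 7 core subunits, 29 accessory subunits and 7 assembly factors of complex I, the 4 subunits of complex II, 8 subunits of complex III, and 12 widely expressed and 8 tissue-restricted subunits of complex IV. Ndufa4, named after complex I, was placed with complex IV, where its protein is now known to reside. All 75 are protein-coding genes in GENCODE M21, and 69 of them passed the filter on low values and were tested.

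The study asked what the minor spliceosome, which removes a rare class of introns, does in the growing limb. Total RNA was sequenced from forelimb (FL) and hindlimb (HL) buds of mouse embryos of strain C57/Bl6 at E10.5 and E11.5. All embryos carried the floxed U11 allele in both copies (U11flx/flx), which holds Rnu11, the gene of a small RNA of the minor spliceosome. WT stands below for embryos that lack the Prrx1-Cre transgene (U11flx/flx::Prrx1-Cre-), and mutant for embryos that carry it (U11flx/flx::Prrx1-Cre+). The Prrx1 enhancer drives Cre in limb mesenchyme, so the other cells of a bud, such as blood, endothelium and ectoderm, keep the allele. There were 8 groups of 3 libraries, 24 in all, and the labels do not say whether a library is 1 embryo or a pool, so p-values measure only the spread between these libraries. Reads of the E10.5 libraries were trimmed by 3 nt at the 3′ end and no trimming is named for E11.5. Stage and trimming therefore cannot be told apart.

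The respiratory chain sits in the inner mitochondrial membrane. Complex I takes electrons from NADH and complex II takes them from succinate. Both pass them through ubiquinone to complex III, and cytochrome c carries them on to complex IV, which reduces oxygen to water. Complexes I, III and IV pump protons, and ATP synthase uses the resulting gradient. Complex II is built from nuclear genes only, whereas the other complexes combine nuclear-encoded subunits with a few encoded by mitochondrial DNA. NRF1, the ETS factor GABP, YY1 and SP1 are known regulators of nuclear respiratory genes.

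Promoter sequences were taken from RefSeq (GRCm38.p6), which held 62 promoters for 60 of the 75 genes, each from 250 bases before to 50 bases after the start. The 6 windows shown run from 120 bases before to 30 bases after the start, and belong to genes of each complex to which the stage results below return. Capitals mark the searched letters on either strand: GCATGCGC for NRF1, CCGGAAG for ETS factors, GGGCGG for SP factors, and CCAAT. The windows are chr19:3912745-3912894 (minus strand) for Ndufs8, chr4:24897963-24898112 (plus strand) for Ndufaf4, chr4:140961151-140961300 (plus strand) for Sdhb, chr4:116075041-116075190 (minus strand) for Uqcrh, chr9:79759824-79759973 (minus strand) for Cox7a2 and chr1:36691367-36691516 (plus strand) for Cox5b.
Ndufs8: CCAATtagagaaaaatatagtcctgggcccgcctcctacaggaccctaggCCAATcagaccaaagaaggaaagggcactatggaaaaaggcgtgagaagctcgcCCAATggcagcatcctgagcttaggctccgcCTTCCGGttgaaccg
Ndufaf4: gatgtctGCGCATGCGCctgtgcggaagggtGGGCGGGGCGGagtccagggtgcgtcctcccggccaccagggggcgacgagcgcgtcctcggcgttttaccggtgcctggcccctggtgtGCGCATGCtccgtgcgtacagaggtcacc
Sdhb: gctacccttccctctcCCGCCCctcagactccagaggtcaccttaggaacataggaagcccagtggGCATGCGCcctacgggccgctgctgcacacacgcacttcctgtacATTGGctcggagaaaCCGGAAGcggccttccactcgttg
Uqcrh: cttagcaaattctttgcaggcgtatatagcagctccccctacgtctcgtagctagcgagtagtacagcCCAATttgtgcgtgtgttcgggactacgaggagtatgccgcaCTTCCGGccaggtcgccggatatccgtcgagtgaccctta
Cox7a2: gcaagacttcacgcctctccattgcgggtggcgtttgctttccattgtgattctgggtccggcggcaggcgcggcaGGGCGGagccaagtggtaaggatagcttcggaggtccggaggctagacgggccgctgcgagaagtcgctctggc
Cox5b: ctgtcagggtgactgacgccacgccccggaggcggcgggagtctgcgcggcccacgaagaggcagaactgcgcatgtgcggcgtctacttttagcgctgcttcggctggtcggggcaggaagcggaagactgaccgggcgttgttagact
Ndufaf4 holds GCATGCGC in both orientations 113 to 111 bases before its start, as 1 overlapping palindrome, and GCGCATGC again 2 bases after it. Sdhb holds the NRF1 letters 54 bases before and the ETS letters 7 bases after its start. The Cox5b window holds none of the searched letters.

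Over the full promoters, the NRF1 letters GCATGCGC or their reverse GCGCATGC were in 14.5% of the 62 promoters of these genes, in 2.71% of all 32851 promoters in the table and in 5.49% of the 11224 promoters of genes tested here. A YY1 motif, searched on both strands, was in 6.45%, 0.852% and 2.17%. For the ETS letters the shares were 19.4%, 8.86% and 18.2%, so the share in respiratory genes lay close to that of tested genes. CCAAT was in 38.7%, 37.4% and 38.1%, and GGGCGG in 46.8%, 35.7% and 64%. A promoter was counted once per motif, matches of different motifs were allowed to overlap, and a match is a description of the letters only.

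Several libraries stood apart before any respiratory gene was compared. The target Rnu11 was at 1253 to 1344 rescaled TPM in E11.5 FL WT and 135 to 237 in the mutant, and at 922 to 2087 and 337 to 420 in HL, so these groups did not overlap. The difference was -2.92 on the log2 scale in FL (limma, adjusted p = 0.000658) and -1.90 in HL (adjusted p = 0.0764). At E10.5 HL the ranges were 427 to 716 and 164 to 267. At E10.5 FL they overlapped: 251, 687 and 1063 in WT against 158, 94.2 and 482 in the mutant, the lowest WT library being the one labelled replicate 1 and the highest mutant library the one labelled replicate 3. The log2 differences at E10.5 were -1.55 in FL (limma, adjusted p = 0.904) and -1.46 in HL (limma, adjusted p = 1.0). The mutant library of this pair held Hoxc10, a hindlimb gene, at 3.91 rescaled TPM, where 5 FL libraries of its stage lay between 0 and 0.342 and the 6 HL libraries between 5.59 and 7.98. Tbx5, a forelimb gene, was at 1.81 in it and at 2.25 in the first, where the remaining 4 FL libraries of E10.5 lay between 5.24 and 10.1. Xist, which is made from the inactive X chromosome, reached 5 TPM in 6 libraries, all of them mutant, 4 at E10.5 and 2 at E11.5. Of the limb mesenchyme genes, Prrx1 was at 17.2 to 66.3 and Twist1 at 9.5 to 25.2 rescaled TPM over the 24 libraries. TPM keeps no read depth, so the counting precision of each value is unknown.

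Levels are given as rescaled TPM, that is, TPM after each library was multiplied by 1 factor (0.539 to 1.51) that sets the medians of well-expressed genes equal. TPM is per length, so levels can be set between genes. Respiratory genes made up 1.59% to 2.04% of all TPM of nuclear protein-coding genes in the 24 libraries. By class, the median of the gene means was 96.0 for widely expressed complex IV subunits, 69.2 for complex III, 36.4 for complex I accessory subunits, 36.0 for complex II, 29.2 for complex I core subunits and 6.18 for complex I assembly factors. The medians of these classes of subunits were thus well above that of the factors that help to build complex I. Single genes overlapped: the accessory subunit Ndufa11 had a mean of 5.81 and the assembly factor Ndufaf2 a mean of 20.5. These bulk values do not separate fewer cells of a type from less RNA per cell.

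**Figure D1:**
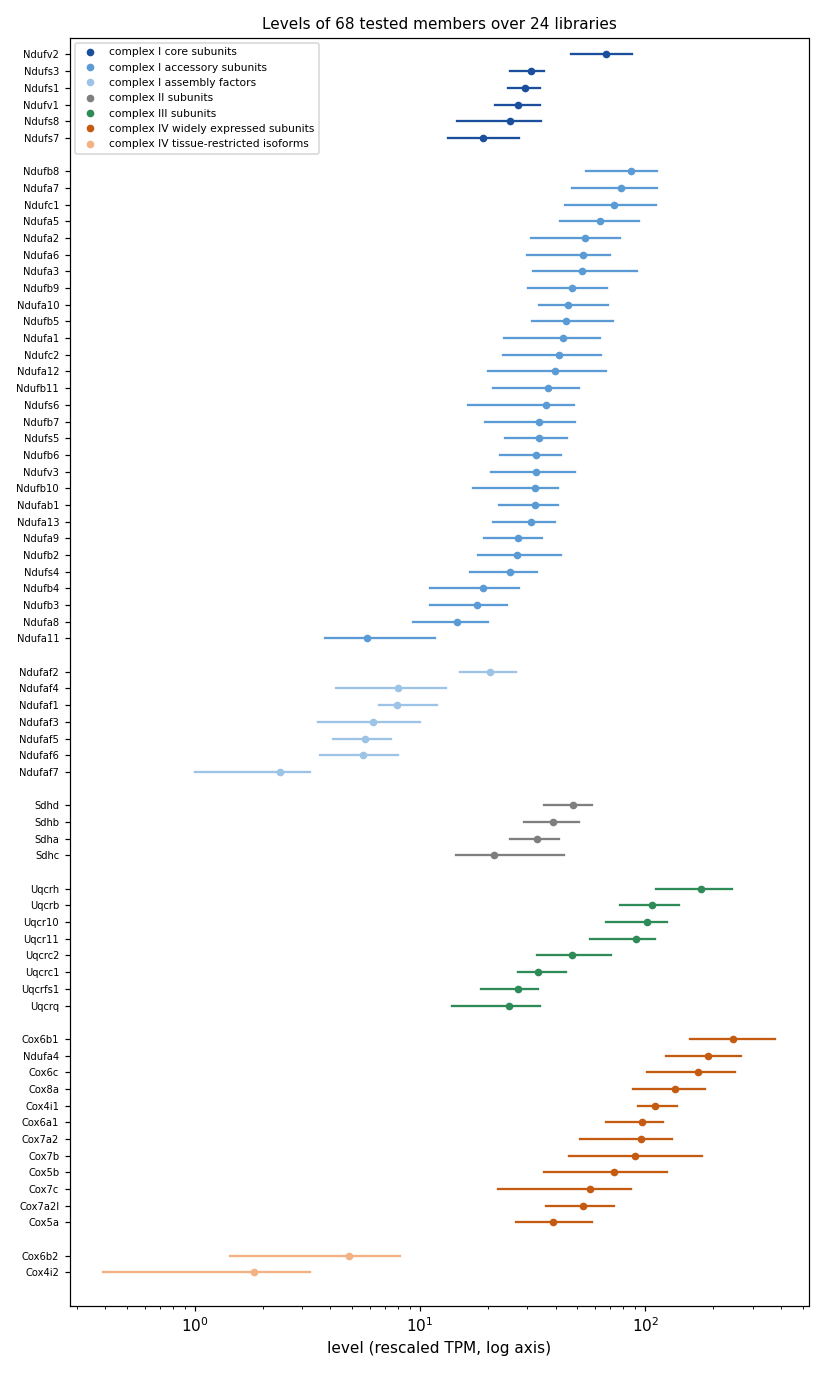
Levels of 68 tested genes, grouped and coloured by class, on a log axis of rescaled TPM; the dot is the mean and the line runs from the lowest to the highest of 24 libraries. Cox6b1 has the highest mean (246), and the complex I assembly factors lie below most subunits (2.38 to 20.5).

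Within complex IV, Cox6b1, a subunit on the intermembrane side, had the highest mean of all members at 246 ± 51.7 (SD, n = 24), with a range of 158 to 377. Ndufa4 followed at 190 ± 38.0 (124 to 266). In complex III the most abundant transcripts were Uqcrh, the hinge protein, at 177 (112 to 243) and Uqcrb at 107 (77.6 to 141). Ndufv2 (67.2), a subunit of the NADH-oxidising arm, led the complex I core, and Ndufb8 (86.8) and Ndufa7 (78.3) led its accessory subunits. The ranges of Cox6b1, Ndufa4 and Uqcrh overlapped. The 4 complex II genes lay within 2.23-fold of each other, from Sdhc, a membrane anchor, at 21.3 to Sdhd, the other anchor, at 47.6, with the iron-sulfur subunit Sdhb at 38.9 and the flavoprotein Sdha at 33.2. Among assembly factors, Ndufaf2 (20.5) was highest, then Ndufaf4 (7.95) and Ndufaf1 (7.9).

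The tissue-restricted isoforms of complex IV were low or undetected. Cox6b2, known from testis, was at 4.85 (1.43 to 8.13), and Cox4i2, known from lung and from low oxygen, was at 1.83 (0.392 to 3.24). Their widely expressed counterparts Cox6b1 and Cox4i1 were at 246 and 111. The other 6 genes of this class did not reach 1 TPM in any library and were not tested: the muscle isoforms Cox6a2, Cox7a1 and Cox8b, the testis isoforms Cox7b2 and Cox8c, and Ndufa4l2, known as a hypoxia-responsive relative of Ndufa4. Cox8c was listed at 0 in 23 libraries, Cox8b in 21, Cox6a2 in 20, Cox7b2 in 14 and Cox7a1 in 6. Ndufa4l2 had a value above 0 in every library, with a highest of 0.446.

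Loss of Rnu11 was compared first, at each stage and in each limb. No respiratory gene passed an adjusted p of 0.05 (limma, Benjamini-Hochberg over all genes tested) in any of the 4 comparisons. Of all genes tested, 0.0251% passed at E10.5 FL, 0.00836% at E10.5 HL, 1.74% at E11.5 FL and 0.018% at E11.5 HL. At an unadjusted p under 0.05, 5 of the 69 differed at E10.5 FL, 0 at E10.5 HL, 5 at E11.5 FL and 0 at E11.5 HL, beside 5.24%, 1.99%, 22.5% and 6.02% of all genes. The 95% interval of the difference excluded a 2-fold change in either direction for 65, 68, 68 and 69 of the 69 genes in that order. Smaller differences were not detectable for many: the interval lay within 0.5 on the log2 scale for 23, 30, 55 and 56.

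The median log2 difference over the 69 genes, mutant minus WT, was 0.195 at E10.5 FL, where 59 of 69 were higher in the mutant, against 0.02 over all genes tested. By the same measure it was 0.04 at E10.5 HL (all genes 0.01), -0.05 at E11.5 FL (-0.02) and 0.10 at E11.5 HL (-0.03), with 44, 25 and 57 of 69 higher in the mutant. Without rescaling, the genes higher in the mutant numbered 34, 59, 69 and 36 in the order E10.5 FL, E10.5 HL, E11.5 FL and E11.5 HL. The E10.5 FL value turned to -0.03 without the libraries with Xist, which leaves 1 library in the mutant group. On the deposited TPM scale it was -0.002. It was 0.173 without the libraries labelled FL WT replicate 1 and FL mutant replicate 3. In the same comparison the erythroid list had a median of 0.716, with 0 of 12 tested genes called, and its summed level was 4536 to 5528 in the 3 mutant libraries against 2058 to 2916 in the 3 WT libraries. Its part in the respiratory value was not tested.

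**Figure D2:**
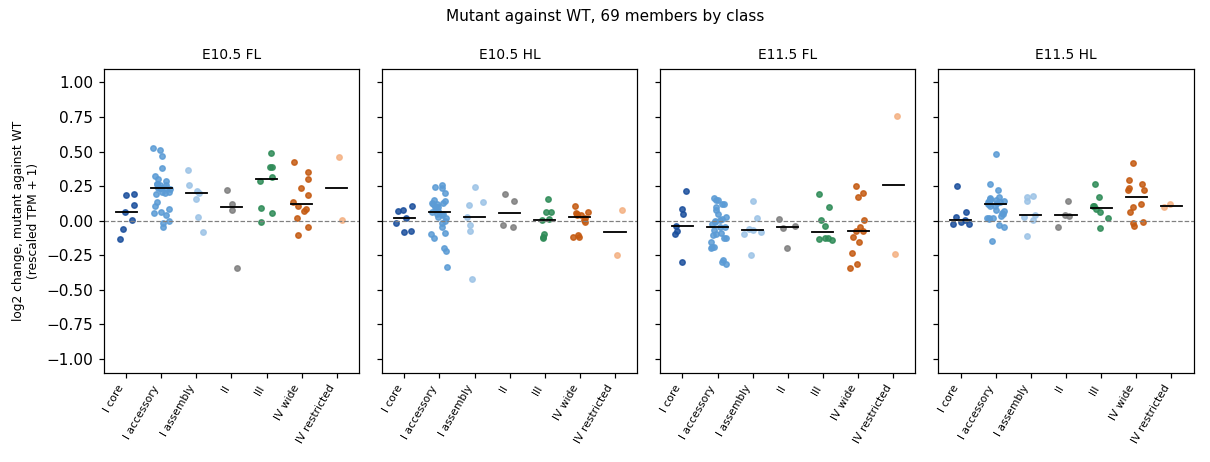
Log2 change of mutant against WT for the 69 tested genes by class, in 4 panels for stage and limb; each dot is a gene and the black line is the median of the class. At E10.5 FL and E11.5 HL most dots lie above 0 (59 and 57 of 69), and no gene passed the test in any panel.

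Single genes closest to the threshold were as follows, none of them called. At E11.5 FL, Cox6b2 was at 4.28, 2.22 and 5.37 rescaled TPM in WT and at 7.93, 8.13 and 5.69 in the mutant. The groups did not overlap, and the log2 difference was 0.76 ± 0.21 (SE, adjusted p = 0.0818). In the same comparison the core subunit Ndufs7 differed by 0.21 (adjusted p = 0.164) and Cox5a, a matrix-side subunit of complex IV, by 0.20 (0.2), both with the higher value in the mutant. Ndufs4, an accessory subunit of the NADH arm, differed by -0.29 (0.177), Cox5b by -0.34 (0.22) and Cox4i2 by -0.24, and all 3 were above 0 on the deposited scale (0.21, 0.17 and 0.07). At E10.5 FL the lowest p-values belonged to Ndufs6 (0.51), Ndufaf6 (0.37) and Uqcr11 (0.49), each with an adjusted p of 0.904.

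For complex II the differences were small. Sdha differed by 0.07, 0.19, 0.01 and 0.04 on the log2 scale at E10.5 FL, E10.5 HL, E11.5 FL and E11.5 HL, and Sdhd by 0.12, -0.03, -0.04 and 0.145. Sdhc stood at 43.8 rescaled TPM in E10.5 FL WT replicate 1, whereas the remaining 23 libraries lay between 14.5 and 23.5. Its difference of -0.34 at E10.5 FL became 0.07 without that library.

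On the deposited TPM scale the count at E11.5 FL was different: 31 of 69 genes were then called higher in the mutant, beside 33.2% of all genes called higher. The median over all genes tested moved from -0.02 to 0.39 with this change of scale, and that of the 69 from -0.05 to 0.45.

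Genes outside the list that help to build the complexes gave the calls of this pathway. Of 36 assembly factors tested, 2 fell in the mutant at E11.5 FL and 0 were called in the other 3 comparisons. Of all 11126 genes tested at E11.5 FL, 194 (1.74%) were called, 141 of them lower in the mutant. Coa3, an assembly factor of complex IV that acts on the COX1 protein, was at 19.7, 21.5 and 20.7 rescaled TPM in E11.5 FL WT and at 10.3, 10.1 and 13.2 in the mutant. It fell by 0.82 ± 0.10 (SE, adjusted p = 0.00246), and on the deposited scale the difference was -0.34 with an adjusted p of 0.148. In E11.5 HL the levels were 21.6, 19.3 and 21.1 in WT and 18.2, 18.3 and 19.5 in the mutant, a difference of -0.13 that did not pass. As for the limbs, the difference in this effect was 0.69 ± 0.14 and did not pass (adjusted p = 0.203). Within the E11.5 mutants Coa3 was higher in HL than in FL by 0.70 (limma, adjusted p = 0.00939), a call lost without FL mutant replicate 1 (adjusted p = 0.0593), without FL mutant replicate 2 (0.067), in the fits of all 24 libraries (0.134) and of only the libraries compared (0.104), and on the deposited scale (0.21, adjusted p = 0.32). The exons of Coa3 overlap those of Cntd1 on the other strand by 82 bases.

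Sdhaf1, an assembly factor of complex II, was at 3.38, 3.04 and 3.28 in E11.5 FL WT and 2.27, 2.35 and 2.19 in the mutant, and fell by 0.35 ± 0.08 (adjusted p = 0.0485). This call was lost on leaving out any 1 of the 6 libraries (adjusted p from 0.0624 to 0.14), and the difference was 0.01 on the deposited scale. Its exons overlap those of E130208F15Rik on the other strand by 1733 bases, and the strand counted is not given in the sources used here. The subunits that these factors help to assemble were not called: the 4 complex II genes and the 12 widely expressed complex IV genes held 0 calls. In the same E11.5 FL comparison the endothelial list summed to 21.2 to 23.8 in WT and 27.4 to 35.4 in the mutant, with 0 of 12 genes called. Of 17 limb mesenchyme genes 1 was called, Pdgfra, which was lower in the mutant (-0.40, limma, adjusted p = 0.0411). Deposited TPM gave 7 endothelial and 7 limb mesenchyme genes called higher in the mutant. The part of these cells in the Coa3 and Sdhaf1 values was not tested.

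Between hindlimb and forelimb no respiratory gene passed the test. Of 69, 0 passed in E10.5 WT, E10.5 mutant, E11.5 WT and E11.5 mutant, beside 0.092%, 0.0586%, 0.144% and 0.44% of all genes tested (limma). At an unadjusted p under 0.05 the counts were 2, 1, 1 and 8, beside 9.56%, 6.67%, 6.94% and 16.1% of all genes. The 8 were in the E11.5 mutant, 7 of them higher in HL, led by Ndufa4 (0.44, adjusted p = 0.229). On the deposited scale 33 of 69 were called lower in HL there, beside 45.9% of all genes called lower, and the median of all genes moved to -0.44. The interaction of limb and genotype held 0 calls at either stage, beside 0% of all genes at E10.5 and 0.00899% at E11.5. Under an unadjusted p of 0.05 were 2 genes at E10.5 and 9 at E11.5, beside 2.49% and 13.4%.

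The change from E10.5 to E11.5 gave the calls among these genes, and values for the 4 groups are given in the order FL WT, FL mutant, HL WT and HL mutant unless named. In FL WT 21 of 69 rose and 11 fell, in FL mutant 6 rose and 18 fell, in HL WT 17 rose and 12 fell, and in HL mutant 22 rose and 8 fell. Of all 12399 genes tested, 38.8%, 35.4%, 40.9% and 35.5% were called in the same order, beside 46.4%, 34.8%, 42% and 43.5% of the 69. Rises made up 22.4%, 18.1%, 23% and 18% of all genes, and falls 16.4%, 17.3%, 17.9% and 17.5%. The medians over the 69 were 0.26, 0.08, 0.19 and 0.23 on the log2 scale, and those over all genes 0.06, 0.01, 0.06 and 0.02. Over the 4 groups, which share no library, 29 genes rose in at least 1 group, 18 fell in at least 1, 22 were called in none, and 0 both rose and fell. Of all genes tested, 35.7% rose in at least 1 group, 28.7% fell in at least 1, 35.8% were called in none and 0.218% did both. The sign was the same in all 4 groups for 58 of the 69, 38 higher and 20 lower at E11.5, beside 67% of all genes, 36.1% higher and 30.9% lower.

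**Figure D3:**
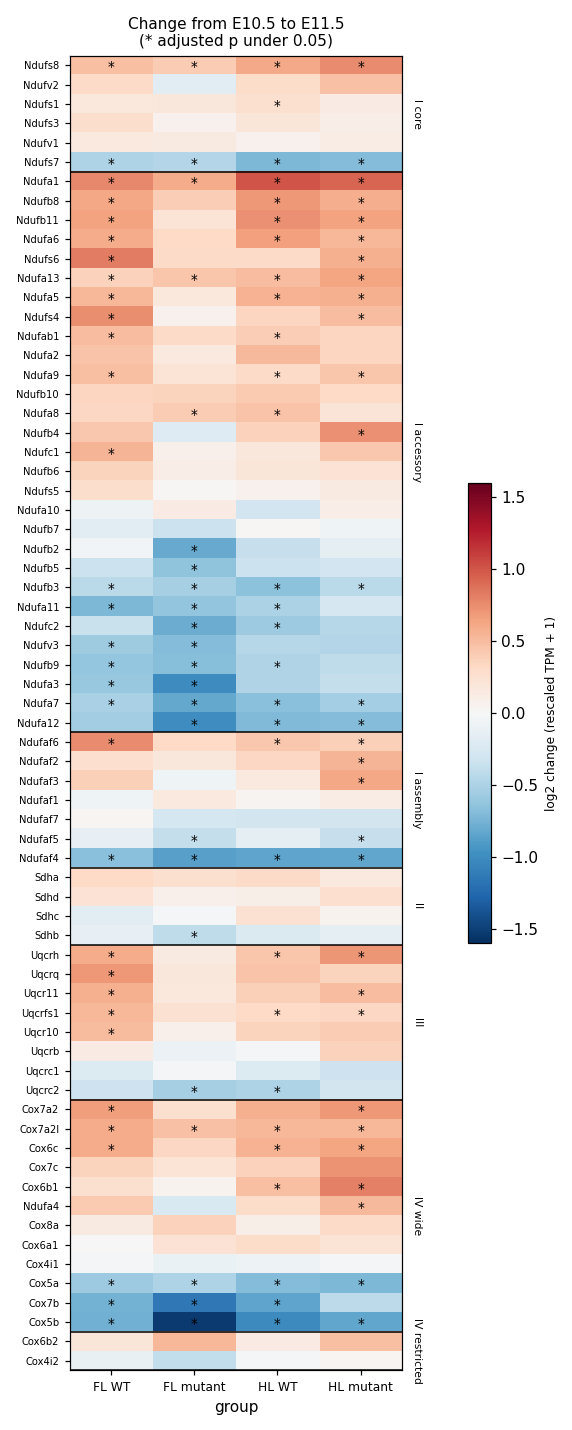
Log2 change from E10.5 to E11.5 for 68 tested genes (rows, by class and mean change) in 4 groups (columns), with a star where the adjusted p was under 0.05. Complexes I, III and IV each hold both red rows (rises) and blue rows (falls), and complex II holds 1 star.

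These directions are relative to the median of well-expressed genes, and they depend on it. On the deposited scale the medians of all genes were -0.27, 0.18, -0.42 and -0.61, and the calls became 0 rises and 19 falls in FL WT, 5 and 3 in FL mutant, 0 and 24 in HL WT, and 0 and 33 in HL mutant. Of all genes, 1.8%, 6.61%, 2.18% and 1.36% then rose and 20.2%, 1.61%, 32.3% and 49.5% fell. Of the 29 genes that rose, 28 had a value under 0 in at least 1 group on that scale. In FL mutant the balance also turned with smaller changes of scale: 17 rose and 13 fell when centred on the median of the respiratory genes themselves, a setting added after the data were seen, and 15 rose and 17 fell with nuclear coding genes summed anew. With that centring, 34 genes rose in at least 1 group, 16 fell and 0 did both. Of the 29 genes that rose, 28 were among those 34, and all 16 were among the 18 that fell. This centring holds the median of the respiratory subunits equal in all libraries. A split into rises and falls follows in part from that, and the overlap is a description only. Shares over all genes tested are not given for this centring or for the sum over nuclear coding genes.

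Calls also rest on few libraries. Shares over all genes tested are not given for the settings that follow. The counts therefore do not show whether lost calls are particular to respiratory genes or shared by other genes. Without the libraries labelled E10.5 FL WT replicate 1 and FL mutant replicate 3, FL WT held 29 rises and 6 falls, and FL mutant 7 and 15. Without the libraries with Xist, which leaves 1 library in each E10.5 mutant group, assumed to vary like the others, FL mutant held 2 rises and 1 fall and HL mutant 15 calls, whereas FL WT and HL WT, which hold no such library, held 28 each. The HL mutant count was 18 without E10.5 HL mutant replicate 1, 19 without E10.5 HL mutant replicate 2 and 18 without E11.5 HL mutant replicate 2.

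Among the core subunits of complex I, Ndufs8 rose and Ndufs7 fell in all 4 groups. Ndufs8, an iron-sulfur subunit of the arm that faces ubiquinone, was at 14.6 to 25.5 rescaled TPM (median 20.5) in the 12 E10.5 libraries and at 25.8 to 34.3 (29.8) in the 12 E11.5 libraries, without overlap. It rose in all 4 groups, by 0.49, 0.40, 0.60 and 0.75 on the log2 scale (adjusted p = 0.016, 0.0439, 0.00411 and 0.00101), and on the deposited scale these were 0.02, 0.64, -0.03 and -0.07. Ndufs7, which holds the last iron-sulfur cluster before ubiquinone, went the other way, from 18.8 to 27.4 (median 23) at E10.5 to 13.3 to 17.9 (14.8) at E11.5, again without overlap. It fell by 0.50, 0.47, 0.71 and 0.70 (adjusted p = 0.00113, 0.00222, 4.89e-05 and 7.84e-05), and kept these calls on leaving out any 1 library. In FL mutant the call was lost on the deposited scale (-0.235, adjusted p = 0.565) and without the libraries with Xist (adjusted p = 0.103). The values of Ndufv1, Ndufs3 and Ndufs1 lay between 0.06 and 0.28, and Ndufs1 rose in HL WT by 0.25, a call lost without any 1 of 5 libraries (adjusted p up to 0.0783), where the deposited scale gave -0.38.

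**Figure D4:**
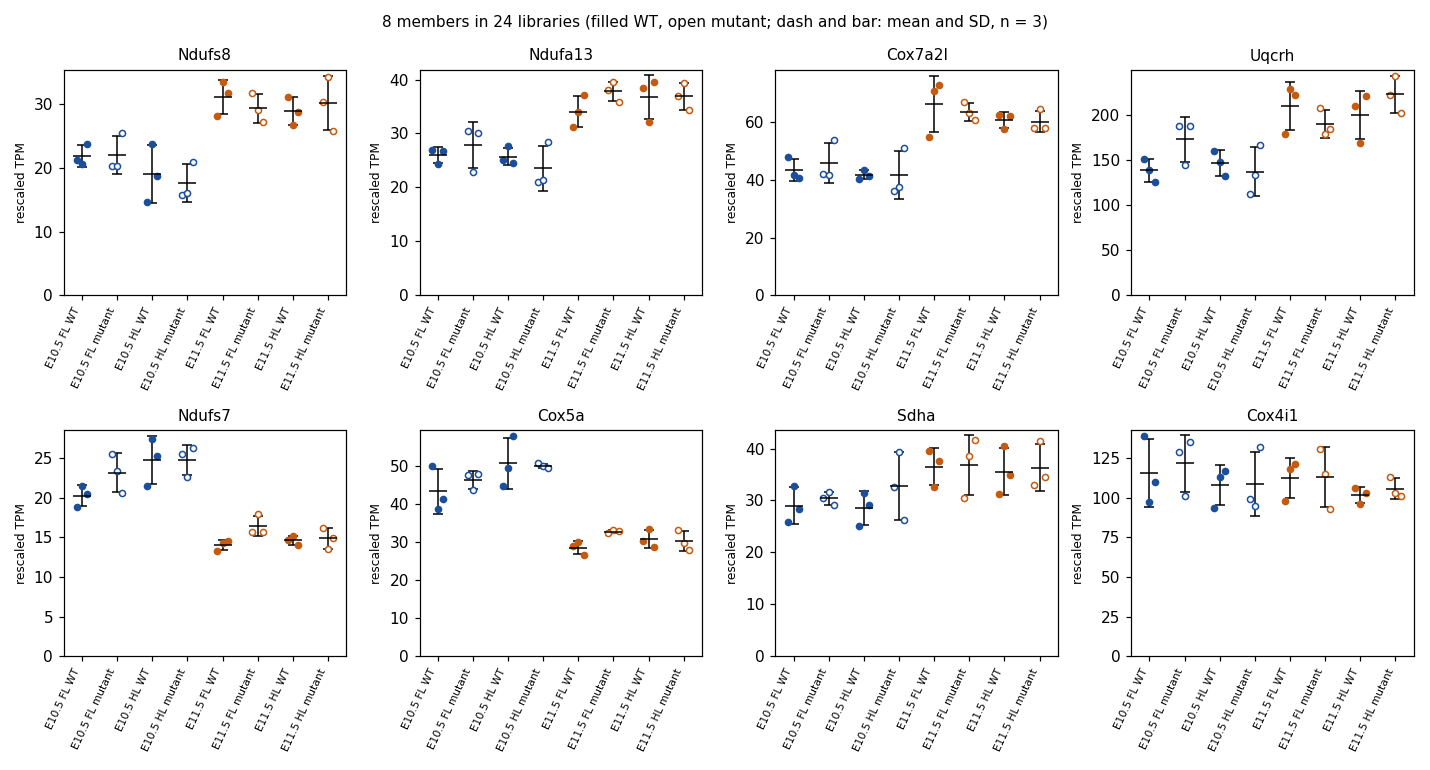
Rescaled TPM of 8 genes in 24 libraries (blue E10.5, orange E11.5, filled WT, open mutant; dash and bar are mean and SD of 3). Ndufs8, Ndufa13 and Cox7a2l have every E11.5 library above every E10.5 library, Ndufs7 and Cox5a have every one below, and Sdha and Cox4i1 overlap.

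Of the 29 accessory subunits, 13 rose and 10 fell in at least 1 group, beside 35.7% and 28.7% of all genes tested. Ndufa1, a small membrane-arm subunit on the X chromosome, was at 23.5 to 47.3 (median 28.7) at E10.5, then 46.7 to 62.9 (56.5) at E11.5. It rose by 0.77, 0.59, 1.01 and 0.93 (adjusted p = 0.00218, 0.0127, 0.000236 and 0.000536) and was above 0 on the deposited scale in all 4 groups (0.30, 0.83, 0.37 and 0.10). Ndufa13, also known as GRIM-19, rose in all 4 groups from a median of 25.9 to 37, without overlap between stages, by 0.37, 0.44, 0.49 and 0.64. Those changes were, without rescaling, -0.095, 0.68, -0.14 and -0.19. Ndufa7 went from 77.4 to 113 (median 91.8) down to 47.3 to 73.2 (61.7), and fell in all 4 groups by 0.52 to 0.82. Ndufb3 fell in all 4 by 0.43 to 0.66. Ndufa12, an accessory subunit, fell in FL mutant (1.00), HL WT (0.70) and HL mutant (0.69), with -0.55 in FL WT, and its median went from 53.2 to 29.2. Ndufb11, also on the X chromosome, went from 21.1 to 39.6 (median 28.3) up to 36.7 to 50.8 (44.9). It rose by 0.65 in FL WT, 0.74 in HL WT and 0.64 in HL mutant, with 0.22 in FL mutant, and the HL mutant value was -0.19 on the deposited scale.

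Not all of these calls held when libraries were left out. In FL WT, Ndufs8 lost its call without E10.5 FL WT replicate 2 or E11.5 FL WT replicate 2 (adjusted p up to 0.0586), and Ndufa13 without E10.5 FL WT replicate 2 or E11.5 FL WT replicate 3 (up to 0.0898). In FL mutant, Ndufs8 lost its call without any 1 library other than E10.5 FL mutant replicate 3 (adjusted p up to 0.132), Ndufa1 without E10.5 FL mutant replicates 1 or 2 or E11.5 FL mutant replicate 2 (up to 0.0657), and Ndufa13 without E10.5 FL mutant replicate 2 (0.064). Ndufa7 lost its FL WT call without E10.5 FL WT replicate 1 (0.107) or E11.5 FL WT replicate 1 (0.146), and its HL mutant call without E10.5 HL mutant replicate 3 or E11.5 HL mutant replicates 1 or 2 (up to 0.0958). Ndufb3 lost its FL WT call without E10.5 FL WT replicate 1 or E11.5 FL WT replicate 1 (up to 0.185), its FL mutant call without E11.5 FL mutant replicate 2 (0.0571), and its HL mutant call without E10.5 HL mutant replicates 2 or 3 or E11.5 HL mutant replicates 2 or 3 (up to 0.12). Ndufa12 lost its HL WT call without any 1 of 4 libraries, E10.5 or E11.5 HL WT replicates 2 or 3 (up to 0.0993), and its HL mutant call without E10.5 HL mutant replicates 2 or 3 or E11.5 HL mutant replicates 1 or 2 (up to 0.114). The FL mutant values of Ndufa7 (-0.58, adjusted p = 0.072), Ndufb3 (-0.295, 0.359) and Ndufa12 (-0.76, 0.0604) were not called on the deposited scale. Without the libraries with Xist, which leaves 1 library in each E10.5 mutant group, further calls were lost. In FL mutant they were those of Ndufs8 (0.56), Ndufa7 (-0.68), Ndufa12 (-0.85) and Ndufb3 (-0.35). In HL mutant they were those of Ndufa7 (-0.48), Ndufa12 (-0.85) and Ndufb3 (-0.41), and in FL WT that of Ndufb3 (-0.43).

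Of the 7 assembly factors of complex I, 3 rose and 2 fell in at least 1 group, beside 35.7% and 28.7% of all genes tested. Ndufaf4, whose promoter holds the NRF1 palindrome printed above, was at 7.1 to 13.1 (median 10.6) at E10.5, then 4.22 to 6.91 (5.46) at E11.5, without overlap. It fell in all 4 groups by 0.67, 0.86, 0.85 and 0.83 (adjusted p = 0.00397, 0.000862, 0.000617 and 0.000857), and kept the calls on leaving out any 1 library. Its FL mutant call was lost on the deposited scale (-0.65, adjusted p = 0.0799) and without the libraries with Xist (adjusted p = 0.127). Ndufaf6 went from a median of 4.29 to 6.43 and rose in 3 groups, by 0.76, 0.43 and 0.38 (FL WT, HL WT and HL mutant), with 0.32 in FL mutant (adjusted p = 0.0617). The HL mutant call was lost without E10.5 HL mutant replicates 1 or 2 or E11.5 HL mutant replicate 2 (adjusted p up to 0.158). Deposited TPM gave 0.35, -0.11 and -0.355 in those 3 groups and 0.52 in FL mutant.

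Complex II held 1 stage call. Sdhb fell in FL mutant by 0.41 ± 0.14 (adjusted p = 0.0313), and differed by -0.135, -0.235 and -0.14 in FL WT, HL WT and HL mutant. Sdha was at 25 to 39.4 (median 29.8) at E10.5, then 30.5 to 41.6 (36.2) at E11.5, and its differences of 0.32, 0.26, 0.31 and 0.16 did not pass. The Sdhb call was lost without E10.5 FL mutant replicates 1 or 3 or E11.5 FL mutant replicates 2 or 3 (adjusted p up to 0.11), and without the libraries with Xist. The 4 genes summed to 121 to 169 in E10.5 libraries, and to 133 to 156 a day later.

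In complex III, 5 of 8 genes rose in at least 1 group, beside 35.7% of all genes tested, and Uqcrc2 fell in 2. Uqcrh was at 112 to 187 (median 146) at E10.5, then 169 to 243 (208) at E11.5, and rose in FL WT (0.59), HL WT (0.44) and HL mutant (0.71), with 0.14 in FL mutant. On the deposited scale these were 0.11, -0.21, -0.14 and 0.39. Uqcrfs1, the Rieske iron-sulfur protein, rose in the same 3 groups by 0.53, 0.32 and 0.33, and its values on the deposited scale were 0.06, -0.31 and -0.50. The HL WT call of Uqcrh was lost without any 1 of 4 libraries, E10.5 HL WT replicates 2 or 3 or E11.5 HL WT replicates 1 or 3 (adjusted p up to 0.11). For Uqcrfs1 any 1 of 5 libraries ended the HL WT call (up to 0.195), all but E10.5 HL WT replicate 3, and any 1 of 4 the HL mutant call (up to 0.136), E10.5 or E11.5 HL mutant replicates 1 or 2. Uqcrc2, a core protein on the matrix side, was at 42.5 to 70.3 (53.5) at E10.5, then 33.1 to 45.7 (42) at E11.5, and fell in FL mutant (0.53) and HL WT (0.49). The FL mutant call of Uqcrc2 was lost without E10.5 FL mutant replicate 3 or E11.5 FL mutant replicate 2 (adjusted p up to 0.0657) and on the deposited scale (-0.29, adjusted p = 0.394), and its HL WT call without E10.5 HL WT replicate 1 (0.0963) or E11.5 HL WT replicate 2 (0.0831). Without the libraries with Xist, the FL mutant call of Uqcrc2 (-0.37) and the HL mutant call of Uqcrfs1 (0.50) were also lost. The exons of Uqcrc2 overlap those of Pdzd9 on the other strand by 504 bases.

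In complex IV, 5 of 12 widely expressed genes rose and 3 fell in at least 1 group, beside 35.7% and 28.7% of all genes tested. Cox4i1, the largest nuclear-encoded subunit, had similar ranges at both stages: 93.5 to 139 (median 112) at E10.5, then 93.0 to 131 (104) at E11.5, with changes of -0.03 to -0.11. Cox7a2l, a relative of Cox7a2, was at 36.2 to 53.8 (41.5) and then 54.9 to 72.8 (62.2), without overlap. It rose in all 4 groups by 0.59, 0.47, 0.53 and 0.54 (adjusted p = 0.00208, 0.0102, 0.00358 and 0.00421), with 0.12, 0.71, -0.11 and -0.30 on the deposited scale. The FL mutant call of Cox7a2l was lost without the libraries with Xist (0.63).

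Cox7a2 was at 51.5 to 117 (median 77.4) and then 90.8 to 131 (111). It rose in FL WT (0.67) and HL mutant (0.70), with 0.57 in HL WT and 0.26 in FL mutant, and the HL mutant value was -0.15 on the deposited scale. Its FL WT call was lost without E10.5 or E11.5 FL WT replicates 2 or 3 (adjusted p up to 0.134), and its HL mutant call without any 1 library other than E10.5 HL mutant replicate 3 (up to 0.192). The HL mutant call was also lost without the libraries with Xist (0.70).

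Cox5a and Cox5b fell in all 4 groups. Cox5a went from 38.7 to 57.8 (median 48.7) down to 26.6 to 33.4 (30.1), without overlap, and fell by 0.58, 0.49, 0.70 and 0.71 (adjusted p = 0.000421, 0.00184, 7.43e-05 and 7.84e-05). Cox5b went from 74.4 to 125 (92) down to 35.6 to 63.8 (44.3), without overlap, and fell by 0.77, 1.53, 1.02 and 0.83 (adjusted p = 0.00195, 5.96e-06, 0.000181 and 0.00116). Both kept their calls on leaving out any 1 library. Cox5b kept all 4 on the deposited scale and without the libraries with Xist, whereas Cox5a lost its FL mutant call in both settings (-0.25 with an adjusted p of 0.521, and -0.41 with 0.174). Cox5b shares 410 bases at 94.4% identity with Gm11273, a gene that was at a mean of 21.7 at E10.5 and 22.9 at E11.5, so reads could be split between them and the Cox5b values are uncertain to that degree. Cox7b, on the X chromosome, fell in FL WT, FL mutant and HL WT by 0.75, 1.14 and 0.84, with -0.42 in HL mutant. The FL WT call was lost without E10.5 FL WT replicate 1 (adjusted p = 0.156), where Cox7b was at 179 rescaled TPM, and without E11.5 FL WT replicate 1 (0.117), and the HL WT call without E11.5 HL WT replicate 2 (0.0563). The FL mutant call of Cox7b was lost without the libraries with Xist (-0.99).

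In 3 genes every E11.5 library lay above every E10.5 library (Ndufs8, Ndufa13 and Cox7a2l), and in 5 every one lay below (Ndufs7, Ndufa7, Ndufaf4, Cox5a and Cox5b). Of all genes tested, 4.77% and 6.69% did so in these directions, and both counts of 69 lie near that background.

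A ratio of 2 genes within a library does not depend on the scale. The pairs were chosen after their values were seen, 1 in each of complexes I, III and IV. Each joins a gene of high with a gene of low stage change, so a difference between stages is fixed by the choice, and the ratios are a description. Ndufa1 to Ndufa12 was 0.485 to 1.23 (median 0.566) in the 12 E10.5 libraries and 1.29 to 2.4 (1.89) in the 12 E11.5 libraries, a 3.35-fold difference of medians. Uqcrh to Uqcrc2 was 2.27 to 3.48 (2.74) and 4.47 to 5.76 (5.12), a 1.87-fold difference. Cox7a2 to Cox5b was 0.571 to 1.22 (0.781) and 1.89 to 2.82 (2.41), a 3.08-fold difference.

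**Figure D5:**
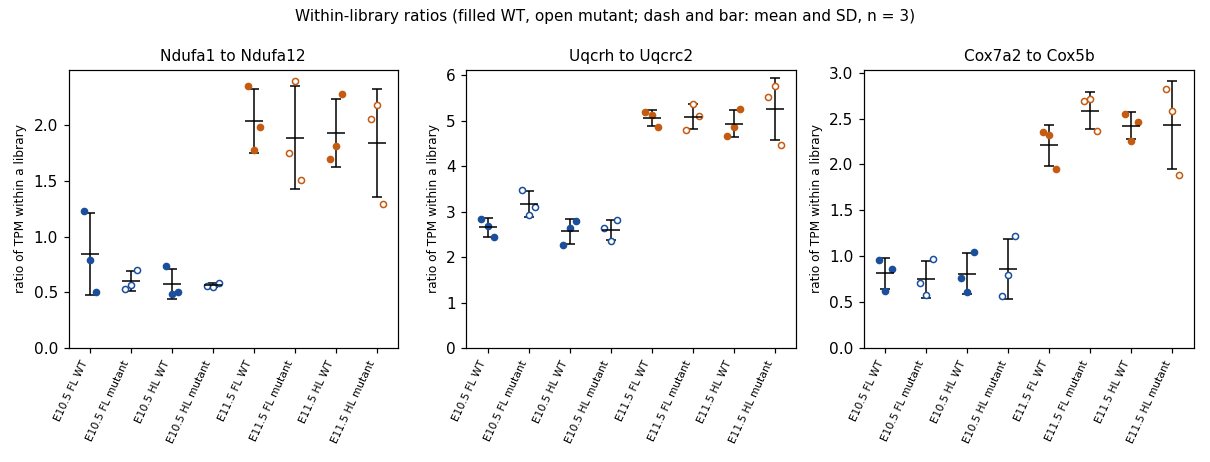
Ratio of TPM between 2 genes of a complex within each of 24 libraries (blue E10.5, orange E11.5, filled WT, open mutant; dash and bar are mean and SD of 3). All 12 E11.5 libraries lie above all 12 E10.5 libraries in each panel, for Ndufa1 to Ndufa12 with the highest E10.5 value at 1.23 and the lowest E11.5 value at 1.29.

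The stage change was not shown to differ between genotypes. The interaction held 0 calls among the 69 genes in FL and 0 in HL, beside 0.0645% and 0.00807% of all genes tested, with 6 and 0 genes under an unadjusted p of 0.05 beside 12.7% and 2.64%. The 6 were Ndufs4, Cox5b, Ndufb2, Ndufa4, Ndufaf6 and Ndufs6, all with the lower value in the mutant. For Cox5b the difference was -0.76 ± 0.24 (SE, adjusted p = 0.226), and -0.05 on the deposited scale.

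Annotated copies were counted for their bearing on such short transcripts. The median exonic length was 1381 bases for the 75 genes (360 to 8086) and 3545 for nuclear protein-coding genes. Annotated pseudogene copies of at least 200 bases at 90% identity or more exist for 19 genes, 34 copies in all, and none of the copies was among the symbols analysed. They belong to 8 of the 29 genes that rose, 7 of the 18 that fell and 4 of the 22 called in no group. Among genes whose stage calls are described above, Cox7b has 4 copies. Ndufa7, Ndufb3, Cox7a2l and Uqcrh have 2 each, and Ndufa12, Cox5a and Ndufb11 have 1 each. The copy of Ndufa12 shares 402 bases at 99.5% identity. As for Cox5b, reads could be split between these genes and their copies. Spearman's rho between the mean stage change and exonic length was -0.227 over 69 genes, which share the same libraries. Exons of 20 members overlap those of another analysed gene, on the opposite strand only for 18. In the promoters, the NRF1 letters were in 3 of 24 genes that rose and 4 of 16 that fell, and the ETS letters in 4 of 24 and 1 of 16.

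Other mitochondrial genes were also called between stages. The tricarboxylic acid cycle and mitochondrial ribosomal protein lists held more falls than rises in every group. Of all 12399 genes tested, 22.4%, 18.1%, 23% and 18% rose and 16.4%, 17.3%, 17.9% and 17.5% fell. On the deposited scale 1.8%, 6.61%, 2.18% and 1.36% of all genes rose and 20.2%, 1.61%, 32.3% and 49.5% fell. Of 18 ATP synthase genes, 9 rose and 2 fell in FL WT, 0 and 1 in FL mutant, 8 and 2 in HL WT, and 10 and 2 in HL mutant, whereas on the deposited scale 0 rose and 5, 0, 5 and 7 fell. Atp5b, the catalytic beta subunit, was at 264 to 382 rescaled TPM (median 334) at E10.5, then 156 to 199 (174) at E11.5, and fell in all 4 groups by 0.62, 0.83, 1.09 and 0.95, though the FL mutant call was lost on the deposited scale (-0.59). Of 13 tricarboxylic acid cycle genes, 2 rose and 6 fell in FL WT, 0 and 4 in FL mutant, 1 and 7 in HL WT, and 2 and 7 in HL mutant. On the deposited scale 0 rose and 7, 0, 10 and 10 fell. Suclg1, a subunit of succinyl-CoA ligase, fell in all 4 groups by 0.63 to 0.76, and Cs, citrate synthase, in 3 groups by 0.68 to 0.72. Of 77 mitochondrial ribosomal protein genes, 8, 4, 8 and 8 rose and 31, 37, 38 and 37 fell, and on the deposited scale 0 rose and 43, 1, 53 and 68 fell. Of 12 regulators of mitochondrial biogenesis, 3, 2, 3 and 2 rose and 1, 1, 2 and 3 fell, and on the deposited scale 0, 1, 0 and 1 rose and 2, 0, 4 and 6 fell.

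Marker lists of other cells gave these values beside the stage changes. The summed level of the myogenic list was 8.81 to 15.1 in E10.5 FL WT and 21.2 to 47.3 in E11.5 FL WT, and 5 of its 9 tested genes rose and 2 fell there. That of the erythroid list was 2058 to 2916 and 2460 to 5129, with 3 of 12 genes rising and 1 falling. In FL mutant 0 erythroid genes rose and 5 fell. On the deposited scale 4 myogenic genes rose and 2 fell in FL WT, 1 erythroid gene rose and 1 fell there, and 0 erythroid genes rose or fell in FL mutant. In HL WT 2 myogenic genes rose and 1 fell, and 3 and 0 erythroid genes, and in HL mutant the counts were 1 and 0, and 2 and 0.

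The endothelial list had sums of 27.5 to 38.9 and then 21.2 to 23.8 in FL WT over the 2 stages, 43.2 to 45.4 and then 18.5 to 29.5 in HL WT, and 37.1 to 56.2 and then 20.1 to 36.3 in HL mutant, lower at E11.5 without overlap in these 3 groups. In FL mutant it was 29.6 to 34.0 and 27.4 to 35.4. Of its 13 genes 0, 1, 0 and 0 rose and 4, 1, 4 and 6 fell, and on the deposited scale 0 rose and 2, 0, 7 and 12 fell. The limb mesenchyme list was higher at E11.5 without overlap in all 4 groups, from 231 to 299 up to 309 to 332 in FL WT and from 169 to 272 up to 310 to 361 in HL WT. Of its 17 genes 3, 8, 7 and 4 rose and 3, 1, 1 and 1 fell, and on the deposited scale 0, 5, 3 and 2 rose and 3, 0, 3 and 4 fell. For surface ectoderm 4, 3, 3 and 6 of 13 genes rose and 2, 5, 1 and 0 fell, and on the deposited scale 3 rose in each group and 4, 2, 7 and 5 fell. The part of these cells in the stage changes was not tested.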

How the data were processed

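RNA was extracted with Trizol and a column kit and sequenced as stranded total RNA on a NextSeq500, per the labels' protocols. The deposited values are TPM by gene symbol, 1 table per library. HISAT2 (no version) and the mm10 build are named in the submitters' processing notes. How TPM was computed, from which gene models and on which strand, is not given in the sources used here. TPM keeps no read depth, so no counting error can be given.

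Each library was rescaled to an equal median log2 TPM over genes at 5 TPM or more in every library of the fit (3518 genes for all 24). Genes with at least 1 deposited TPM in at least 3 libraries were kept. log2(rescaled TPM + 1) was fitted with limma 3.58.1 in R 4.3.3 (moderated test with trend, two-sided), after a test on simulated data, with Benjamini-Hochberg adjustment over all genes tested and a threshold of 0.05. The fits used the 12 libraries of a stage for genotype and limb, and all 24 for stage. A log2 change on this scale understates that of low genes. Intervals are at 95%.

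Genes and lists were chosen with earlier results of these data known. Named genes were drawn from passing members (at most 8 a direction and comparison), the 2 most abundant of each class and the 3 lowest p-values a direction for genotype. Further sources were all complex II genes, expressed restricted isoforms and up to 3 passing genes of each other list. Not all of these are described, so a gene whose stage change is not described can still have been called. Examples are Cox6b1 and Ndufb8, which rose in 2 and 3 groups, and Ndufb9, which fell in 3. On the deposited scale these genes were called in the same direction in 0, 1 and 3 groups. Ndufaf1, Ndufv1, Ndufs3 and the genes of the ratios and interactions were named after their values were seen, and for each gene whose stage change is described every stage call was put through the alternatives. In all fits and counts 1 further tested gene is included that is not reported here by name, and it is left out of the plots with gene names. Alternatives were the deposited scale, a sum over nuclear coding genes, another pseudocount (0.1), no filter, a replicate block, other sets of libraries and each library left out.

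At E10.5 the deviations of each FL library from its group means correlated best with those of the HL library of the same number. These correlations were 0.150, 0.066 and 0.286 in WT and 0.106, 0.182 and 0.198 in the mutant. The WT FL libraries of E10.5 also correlated best with the mutant FL libraries of the same number (0.070, 0.142 and 0.020). At E11.5 the FL to HL correlations of the same number were -0.171, -0.135 and -0.048 in WT. In the E11.5 mutant they were -0.011, 0.259 and 0.178. At E11.5 the same number was the best match only for mutant replicates 2 and 3. No label states a pairing. Copies were sought with blastn 2.17.0 among GENCODE M21 transcripts.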

Additional observations from a re-analysis of the deposited data

How the results depend on the processing

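The 12 counts for genotype, limb and the interactions stayed at 0 under every alternative run, except on the deposited scale, where 31 were called for genotype at E11.5 FL and 33 for limb in the E11.5 mutant. Stage counts became 19 (FL WT) and 8 (FL mutant) on the deposited scale, 20 (FL WT) with only the libraries compared, and 3 (FL mutant) and 15 (HL mutant) without the libraries with Xist. Leaving out 1 library gave 25 to 35 in FL WT, 17 to 24 in FL mutant, 20 to 28 in HL WT and 18 to 28 in HL mutant. With a replicate block the stage counts were 33, 25, 31 and 29, and the other counts were 0. Apart from the deposited scale, shares over all genes are not given for these settings. The changes in count therefore cannot be set against those of other genes. Of the 64 stage calls given for single genes in the report, 40 were kept whichever library was left out, 29 on the deposited scale and 47 without the libraries with Xist.

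Among 78 stage calls examined gene by gene, these 64 among them, the following turned sign on the deposited scale. In FL WT it was Ndufa13 (-0.095). In HL WT they were Cox7a2l (-0.109), Ndufa13 (-0.14), Ndufs8 (-0.027), Ndufa5 (-0.081), Ndufaf6 (-0.11), Ndufs1 (-0.38), Uqcrfs1 (-0.308) and Uqcrh (-0.21). In HL mutant they were Ndufa13 (-0.19), Ndufs8 (-0.068), Cox6b1 (-0.047), Uqcrh (-0.139), Cox7a2l (-0.302), Ndufaf2 (-0.275), Ndufb11 (-0.189), Cox7a2 (-0.149), Ndufaf6 (-0.355) and Uqcrfs1 (-0.496). For genotype at E11.5 FL they were Ndufs4 (0.212), Cox5b (0.167), Cox4i2 (0.071) and Sdhaf1 (0.008). Without both doubted E10.5 FL libraries, the genotype value turned for Sdhc (0.029). With each library left out, genotype values at E10.5 FL ran from -0.575 to 0.066 for Sdhc and from -0.128 to 0.019 for Ndufs1, and at E11.5 HL from -0.234 to 0.008 for Ndufs5 and -0.108 to 0.005 for Uqcrc1. The cause was not tested.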
